A study of Mus musculus with 20 samples.

Results

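The vehicle libraries of the series are described here, 5 from a 2 day set and 5 from a 4 week set, which makes 10 of the 20 libraries. They were chosen by treatment and set alone, with no measured value. All came from arcuate nuclei cut out by laser from male C57Bl/6J mice, housed singly and 10 weeks old when treatment began, and every vehicle mouse drank water with 1% ethanol. The 2 day set drank it for 2 days, and was cut from 30 µm sections on an MMI CellCut system and sequenced on a HiSeq 4000. The 4 week set drank it for 4 weeks, was fasted for 16 hours and then refed for 24 hours before death, and was cut from 12 µm sections on a PALM Microbeam system and sequenced on a HiSeq 2500. The remaining 10 libraries, 5 per set, came from mice given corticosterone (Cort) at 75 µg/ml in water with the same 1% ethanol. They serve here only as a second pair of sets that was handled the same way, though length of Cort exposure also differed between those sets. Length of vehicle exposure, age at death, fasting with refeeding, section thickness, laser system and sequencer all change together between the sets. Their parts in any difference below cannot be told apart.

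The arcuate nucleus lies at the base of the hypothalamus beside the third ventricle. Neurons that make Agrp and Npy promote feeding there, neurons that make Pomc and Cartpt restrain it, and other neurons make the kisspeptin, neurokinin B and dynorphin peptides (KNDy cells), dopamine or growth hormone releasing hormone. Tanycytes, elongated glia that line the ventricle floor, send processes into the nucleus.

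The 2 day vehicle libraries held 3599419 to 5237795 counts and the 4 week vehicle libraries 1065776 to 2794561, so low genes were measured less precisely at 4 weeks. A count of at least 1 was found for 13550 to 14333 genes per library at 2 days and for 11031 to 12697 at 4 weeks. The level that 3 counts stand for was 0.572 to 0.815 CPM (counts scaled to the library total) in the 2 day set and 1.08 to 2.94 CPM in the 4 week set, and a gene with no count may lie anywhere below it. Such floors cover counting error only. Libraries of the 2 day set resembled each other more closely, with Spearman correlations of 0.861 to 0.947 over 6259 genes (10 pairs), against 0.578 to 0.788 within the 4 week set (10 pairs) and 0.564 to 0.820 between the sets (25 pairs). The study left out 4 of the 10 libraries as outliers, C07 and C09 of the 2 day set and C01 and C05 of the 4 week set. All 10 enter the results below, and for called genes that lose the call without those 4 libraries the adjusted p without them is given as well.

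The arcuate identity of the tissue was visible in both sets. Per kilobase of exon, the highest median levels over the 10 libraries belonged to mitochondrial transcripts, namely mt-Cytb at 15628, mt-Nd1 at 14563 and mt-Co1 at 13760.0 CPM per kb. The peptide genes Sst (somatostatin) and Npy ranked 16 and 18 among all genes by median CPM per kb at 2 days and 9 and 16 at 4 weeks. Agrp ranked 126 and 120, Pomc 94 and 168, Ghrh (growth hormone releasing hormone) 103 and 121, and Cartpt 70 and 213. Genes of the ventromedial nucleus next to the arcuate differed in level. Nr5a1, a transcription factor that defines that nucleus, reached at most 2.34 CPM at 2 days and had no count in the 5 libraries of the 4 week set. Adcyap1, Cbln1 and Slit3, also used by the study as markers of that nucleus, averaged 13.4, 24.0 and 7.66 CPM at 2 days. At 4 weeks they averaged 0.0856, 7.44 and 11.1 CPM. Among the 15 highest genes per kilobase, Gm20594, Lars2, mt-Co1 and mt-Nd4 are listed with values that may include reads from other transcripts. The treatment of multiply mapped reads is not given in the sources used here. Of the 50-base stretches of mt-Nd4 and mt-Co1, 62.2% and 51.1% recur in other annotated transcripts, against 4.0% for Gm20594 and 0.2% for Lars2. Kiss1, the kisspeptin gene, stayed at or below 0.856 CPM in the 10 libraries. Its identifier had no entry in the annotation used here for exon length, and whether annotation or counting bears on this level was not tested.

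Of the 11253 genes tested between the sets, 331 were higher and 267 were lower in the 4 week vehicle set at an adjusted p (Padj) below 0.1 by edgeR's quasi-likelihood test with Benjamini-Hochberg adjustment. These are 2.94% and 2.37% of the genes tested, against which the counts for gene groups below are to be read. The median log2 fold change, always given as 4 week minus 2 day, was 0.06 over the genes tested. Among the 598 called genes the median size of the difference was 1.51 on the log2 scale, and 504 of them differed at least 2-fold. A further 2457 genes differed at least 2-fold without passing the test. In 830 genes (7.38%) the 5 libraries of one set lay outside the range of the other, and this held for 428 of the 598 called genes. With upper quartile scaling in place of TMM, 203 genes were higher and 349 lower, so the balance of the directions depends on the scaling. The median log2 fold change of all genes was then -0.07, and the directions below are relative to TMM scaling unless another is named. Leaving out the 4 libraries named above gave 281 called genes (2.42% of 11621 tested), 188 of them shared with the 598 in the same direction.

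**Figure D1:**
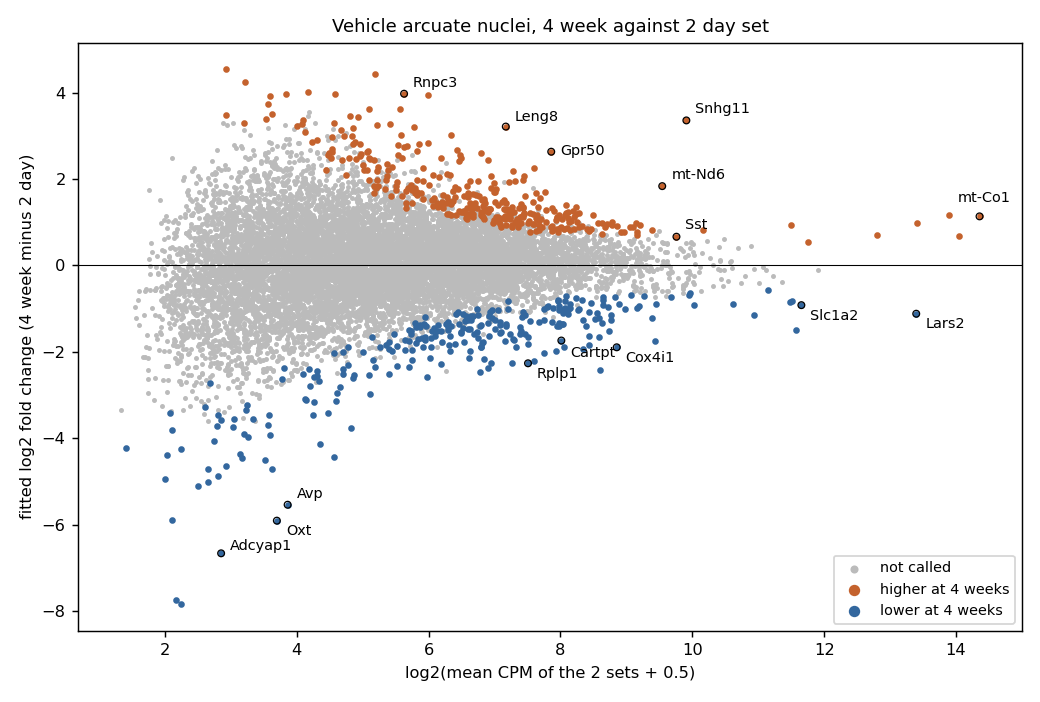
Fitted log2 fold change of each gene tested between the vehicle sets (y axis, 4 week minus 2 day) against its mean level, as log2 of the mean CPM plus 0.5 (x axis). The 331 genes higher and the 267 lower at 4 weeks are coloured, the genes circled are named in the text, and Avp, Oxt and Adcyap1 lie far below the line at 0, with almost no counts at 4 weeks.

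The neuropeptide genes that define the feeding circuit did not all move together. Cartpt (a peptide made by Pomc neurons) and Tac2 (neurokinin B) were lower at 4 weeks, Sst was slightly higher, and Agrp, Npy, Pomc and Ghrh did not pass the edgeR test. Of the 9 AgRP neuron genes tested, 1 was higher, Sst. Of the 10 Pomc neuron genes, 1 was higher and 1 lower, of the 7 KNDy genes 1 was lower, and of the 10 dopamine and Ghrh neuron genes none was called by edgeR. In bulk tissue, fewer cells of a type and less RNA per cell cannot be told apart.

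In the order of libraries C02, C04, C05, C07 and C09 at 2 days and C01 to C05 at 4 weeks, which is kept from here on, Cartpt was at 390.4, 337, 325, 515 and 418 CPM against 66.7, 147, 152, 157 and 70.1 CPM. All 4 week libraries were below all 2 day libraries, a 3.34-fold lower level (log2 fold change -1.74 ± 0.28 SE, Padj = 0.00428), and the call held without any single library. Tac2 was at 76.7, 158, 150.1, 82.7 and 167 CPM against 12.8, 44.1, 36.4, 8.15 and 58.5 CPM. Its sets did not overlap either (-1.97 ± 0.49, Padj = 0.0386), but it was not called without library C04 or C09 of the 2 day set, with a highest Padj of 0.125, nor without the 4 libraries (Padj = 0.109). Cartpt lies on chromosome 13 at 99898489 to 99901091 and Tac2 on chromosome 10 at 127724478 to 127731768 (GRCm38).

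Sst showed the opposite direction, at 499, 583, 648, 819.8 and 801 CPM against 768, 1035, 906, 1392 and 1209 CPM (0.66 ± 0.21, Padj = 0.0957). Its lowest 4 week library lay within the 2 day range, and the call was lost without any of the 5 libraries of the 2 day set and without C02, C03, C04 or C05 of the 4 week set, with a highest Padj of 0.266. Pcsk2, a convertase that cuts prohormones into peptides, was higher at 219, 153, 164, 227 and 361 CPM against 124, 119.8, 136, 72.4 and 112 CPM at 2 days (0.99 ± 0.29, Padj = 0.075). It lost its call without any one 2 day library or C05 of the 4 week set, and without the 4 libraries (Padj = 0.329).

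Agrp was at 117, 209, 162, 527 and 416 CPM at 2 days and 143, 307, 164, 214 and 19.2 CPM at 4 weeks (-0.76 ± 0.50, Padj = 0.462). Npy was at 294, 453, 344, 599 and 547 against 52.0, 573, 337, 509 and 218 CPM (-0.40 ± 0.41, Padj = 0.666). For both genes the sets overlapped widely, and the highest Agrp values at 2 days came from C07 and C09. Without the 4 libraries the direction turned, to 0.51 for Agrp (Padj = 0.445) and 0.40 for Npy (Padj = 0.453), and the median of the AgRP neuron list went from -0.04 to 0.51. With the length and GC trend described below removed, Agrp and Npy also lay above 0, at 0.40 and 0.65, without a call. Pomc was at 226, 320.4, 333, 402 and 359 against 21.6, 229, 205, 172 and 82.6 CPM (-1.20 ± 0.41, Padj = 0.133), so that 4 of its 5 libraries at 4 weeks lay below the 2 day range while the difference missed the threshold by edgeR. DESeq2 called Pomc (Padj = 0.0517), and edgeR did in 2 of the 10 fits without 1 library. Pomc was at -0.52 without the 4 libraries (Padj = 0.301) and at -0.20 with the trend removed (limma Padj = 0.849), without a call. Ghrh (-0.42, Padj = 0.60) and Th (tyrosine hydroxylase, the rate-limiting enzyme of dopamine synthesis, -0.05, Padj = 0.965) overlapped. Gal (galanin) and Calcr (calcitonin receptor) did not overlap between sets and still missed the threshold by edgeR, with log2 fold changes of -1.67 ± 0.71 (Padj = 0.226) and 0.90 ± 0.29 (Padj = 0.111). Both were called with DESeq2 (Padj = 0.0852 and 0.0274).

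**Figure D2:**
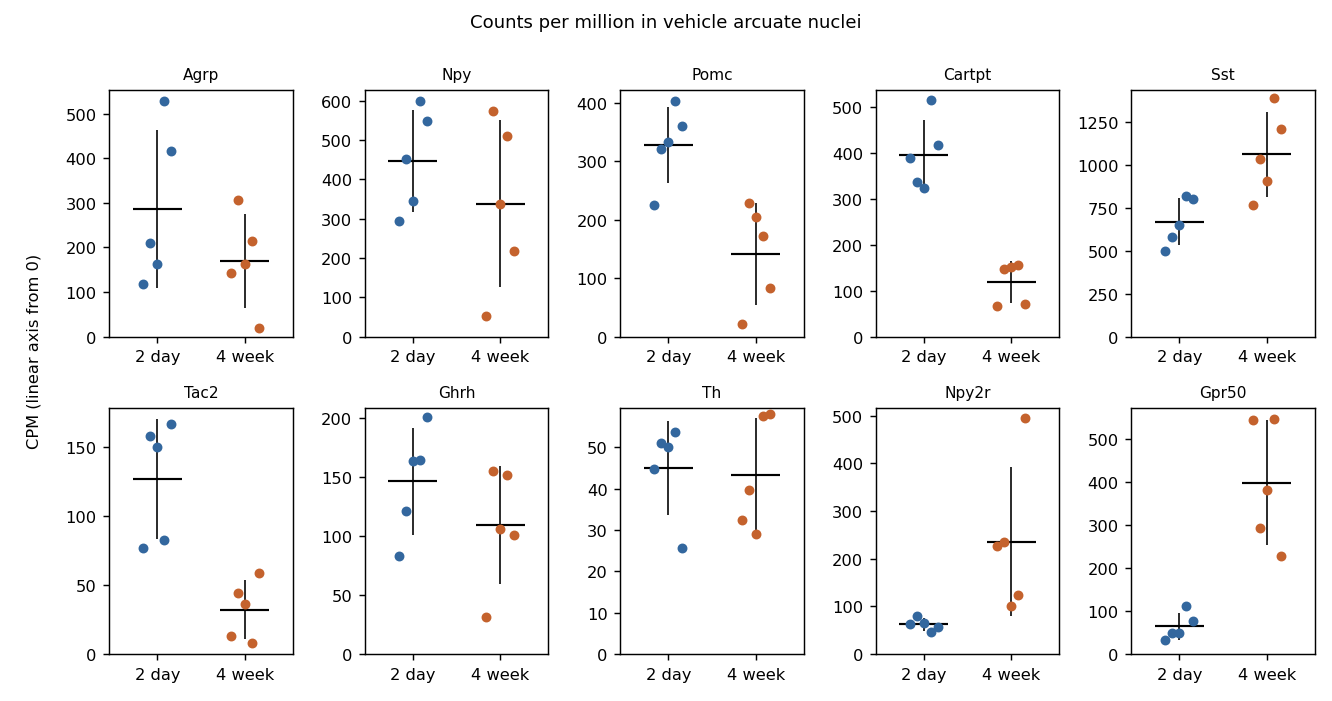
CPM of 10 genes in each vehicle library (points), with the mean (horizontal line) and SD (vertical line) of the 5 libraries per set, on linear axes from 0. The sets of Cartpt, Tac2, Npy2r and Gpr50 do not overlap, whereas those of Agrp, Npy, Pomc, Sst, Ghrh and Th do.

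Among the receptors and signalling genes through which hormones reach these neurons, 3 of 16 tested were higher at 4 weeks and none lower, with a median log2 fold change of 0.51. Without the 4 libraries 1 of them was called. Their summed level ran from 1840 to 2334 CPM in the 2 day libraries and from 2664 to 3756 CPM in the 4 week libraries, without overlap. Npy2r, the presynaptic receptor for NPY and PYY, was at 63.2, 79.4, 65.4, 45.1 and 55.7 CPM against 228, 234, 100.2, 123 and 495 CPM, 3.82-fold higher (1.93 ± 0.38, Padj = 0.0135). The call held without any single library, but without the 4 libraries the Padj was 0.148. Ghr (growth hormone receptor) was at 83.0 ± 27.5 CPM (SD, n = 5) against 203 ± 45.4 CPM (SD, n = 5), with a log2 fold change of 1.29 ± 0.29 (Padj = 0.0275). Stat3, which carries the leptin receptor's signal to the nucleus, was at 105 ± 22.7 against 211 ± 74.0 CPM (SD, n = 5 each; Padj = 0.0663, and 0.154 without the 4 libraries). Lepr, the leptin receptor itself, spanned 4.77 to 11.7 CPM in the 2 day set and 0 to 89.1 CPM in the 4 week set (2.26 ± 0.91, Padj = 0.204). Its 4 week libraries ranged from no count in C05 to the highest level in C04.

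A few transcripts of neighbouring nuclei were at or near 0 in the 4 week set, while others were not. Adcyap1, the peptide PACAP that is abundant in the ventromedial nucleus, was at 12.9, 7.42, 15.4, 4.95 and 26.1 CPM at 2 days, and at 4 weeks only C03 held any, at 0.428 CPM (Padj = 0.00975). Avp and Oxt, the vasopressin and oxytocin genes of magnocellular neurons, reached from 8.0 to 45.9 CPM and from 13.1 to 39.7 CPM in the 2 day set. Among the 4 week libraries only C03 held counts, at 2.57 and 1.71 CPM (Padj = 0.0197 and 0.0129). Hdc, the histamine-synthesising enzyme of the tuberomammillary nucleus, was at 62.9, 56.7, 35.1, 5.71 and 8.69 CPM against 0.981, 7.17, 0, 4.79 and 1.79 CPM (Padj = 0.0672). No fold is given for Adcyap1, Avp and Oxt because the 4 week levels lay at or near the level of 3 counts. Of the 14 genes listed for other neighbouring nuclei, 5 passed the low-count filter and were tested. Among these 3 were lower and none higher. Avp and Oxt, like Adcyap1, passed the filter through their 2 day levels, so the tally leaned towards lower from the start. The summed level of the 14 genes lay between 102.5 and 207 CPM in the 2 day set and between 5.36 and 78.5 CPM in the 4 week set. Without the 4 libraries Adcyap1 kept its call (Padj = 0.0747) and Avp and Oxt did not (Padj = 0.132 and 0.136). Of 6 genes of the ventromedial list tested, 1 was lower, Adcyap1, and the summed level of the list overlapped between sets, with 91.8 to 318 CPM (2 day) and 98.1 to 166 CPM (4 week). Others of that list were not called, Cbln1 (a synapse organiser) with -1.66 ± 0.88 (Padj = 0.345) and Slit3 (an axon guidance protein) with 0.54 ± 0.83 (Padj = 0.787).

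Tanycyte genes were higher at 4 weeks or not called, and astrocyte genes were lower or not called. Of 11 tanycyte genes tested, 4 were higher and none lower, and the 11 had log2 fold changes above 0 with a median of 1.51, against 0.06 over all genes tested. Gpr50, an orphan receptor related to melatonin receptors and enriched in tanycytes, was at 32.4, 49.9, 49.2, 112 and 77.7 CPM against 545, 293, 381, 549 and 228 CPM, 6.2-fold higher (2.63 ± 0.35, Padj = 0.00122). Every 4 week library had at least 228 CPM, above the highest 2 day library. Scn7a, a sodium channel of glia, rose from 58.7 ± 25.9 to 199.8 ± 48.5 CPM (Padj = 0.0120), and Vcan, a matrix proteoglycan, from 27.8 ± 9.14 to 148 ± 55.9 CPM (SD, n = 5 each; Padj = 0.00405). Col23a1, a membrane collagen, was also higher (1.83 ± 0.48, Padj = 0.0539), with overlapping sets and a Padj of 0.155 without the 4 libraries. The summed level of the tanycyte list was 258, 343, 347, 532 and 500 CPM against 1411, 1132, 1154, 1732 and 1053 CPM. Rax, a transcription factor that defines tanycytes, had at most 1.71 CPM at 2 days and 19.7 CPM at 4 weeks and was not tested. Gpr50, Vcan and Scn7a remained called in each of the 20 other analyses tried, the one without the 4 libraries included.

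Among 14 astrocyte genes tested, 5 were lower and none higher, with a median of -0.58. Slc1a2, the main glial glutamate transporter, was at 3666, 3418, 3737, 6248 and 4012 CPM against 1203, 2205, 2183, 2083 and 3468 CPM (-0.92 ± 0.23, Padj = 0.0463). Its sets overlapped only through C05 of the 4 week set. Slc1a3, the second glial glutamate transporter, Aldoc, Ntsr2 and Agt were also lower, with log2 fold changes of -0.73, -0.68, -1.62 and -1.56 and Padj of 0.0601, 0.0587, 0.0468 and 0.0872. None of these 4 was called by edgeR without the 4 libraries, with Padj of 0.196, 0.152, 0.270 and 0.199, and Slc1a2 was (Padj = 0.0103). Other astrocyte genes gave no call, such as the water channel Aqp4 (0.27 ± 0.29, Padj = 0.677) and Mlc1 (0.10 ± 0.42, Padj = 0.929). The number of astrocyte calls depended on single libraries. None was made by edgeR without C07 or without C09 of the 2 day set, 2 were made without C02 and 3 without C04 or C05, while 4 to 6 were made when a 4 week library was left out, and 1 was made without the 4 libraries. Fabp7, a fatty acid binding protein of immature glia, was outside the list and lower, at 139.9, 131, 105, 286 and 262 CPM against 64.7, 36.6, 36.8, 17.3 and 12.5 CPM (-2.48 ± 0.44, Padj = 0.00751). Of 11 oligodendrocyte genes 1 was higher, Ermn (2.62 ± 0.78, Padj = 0.0807, and 0.294 without the 4 libraries), 8 had log2 fold changes above 0, the median was 0.56, and the summed levels overlapped. Without the 4 libraries 3 of the 11 were higher and the median was 1.61, and with the length and GC trend removed none was called by limma and the median was 1.02.

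Genes shared by most neurons were lower or not called. Of 16 tested, 5 were lower and none higher, with a median of -0.56, and the summed level was 9118 to 9812 CPM in the 2 day set against 5790 to 7914 CPM in the 4 week set. Uchl1, a ubiquitin hydrolase abundant in neurons, was at 570.4, 510.1, 472, 492 and 569 CPM against 58.9, 171, 155, 277 and 174 CPM (-1.64 ± 0.30, Padj = 0.00762). The neurofilament-like gene Ina (-1.56 ± 0.33, Padj = 0.0208), the microtubule gene Map2 (-0.58 ± 0.16, Padj = 0.0625), Rbfox3, which encodes the antigen NeuN (-1.42 ± 0.41, Padj = 0.0716, and 0.277 without the 4 libraries), and Thy1 (-1.58 ± 0.45, Padj = 0.0688) were lower as well. The calls numbered 2 without C02, C07 or C09 of the 2 day set, 3 without C04 or C05 of that set or C04 of the 4 week set, and 4 without the 4 libraries. Snap25, which serves vesicle release, was at 2302 ± 263 CPM against 2127 ± 348 CPM (SD, n = 5 each; Padj = 0.766).

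**Figure D3:**
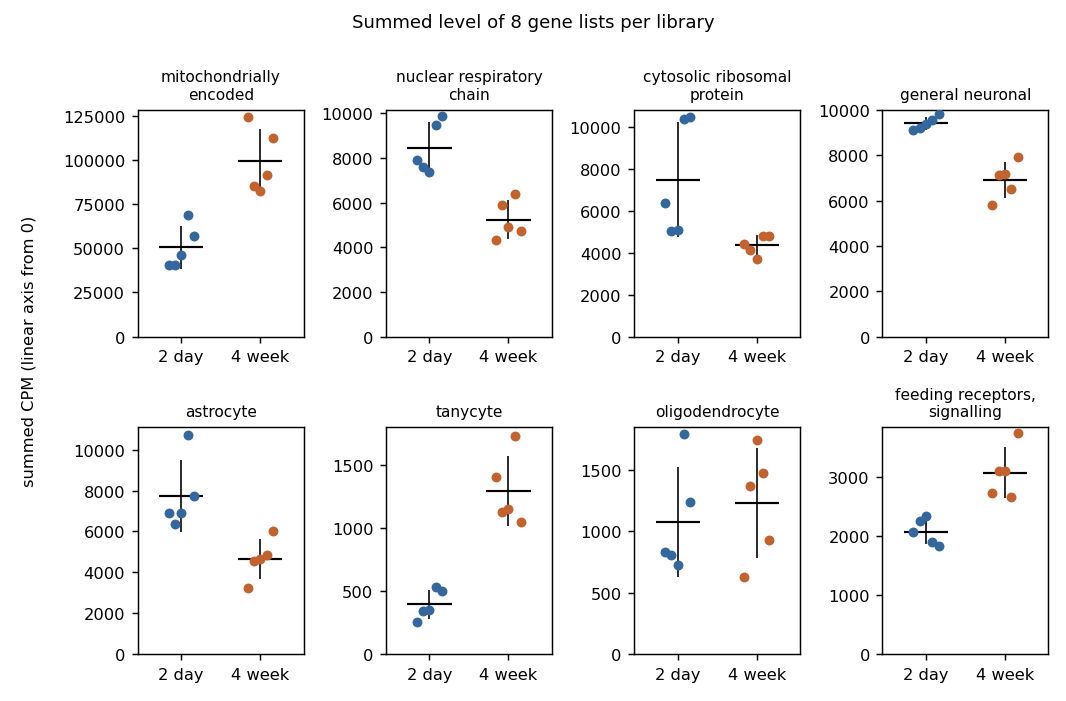
Summed CPM of 8 gene lists in each vehicle library (points) with mean and SD of the 5 libraries per set, on linear axes from 0. The sets separate for 7 of the lists, higher at 4 weeks for mitochondrially encoded, tanycyte and feeding receptor genes and lower for the other 4, while the oligodendrocyte sums overlap.

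The respiratory chain split by the genome that encodes it. Of 11 mitochondrially encoded genes tested, 9 were higher at 4 weeks and none lower (median 1.14). Of 31 nuclear genes of the same chain, 14 were lower and none higher (median -1.09). Mitochondrial transcripts together made 40433, 40733, 46259, 68625 and 57144 CPM at 2 days and 124190, 85038, 82379, 91646 and 112430 CPM at 4 weeks. mt-Co1, a catalytic subunit of complex IV, was at 10683, 10352, 11393, 18248 and 14945 CPM against 37532, 24679, 24269, 24507 and 33207 CPM (1.14 ± 0.18, Padj = 0.00337). mt-Nd6, the subunit of complex I encoded on the opposite strand to the others, showed a larger difference, 3.57-fold (1.84 ± 0.21, Padj = 0.000339). The libraries do not mark strand, so its counts may include RNA of either strand. Cox4i1, a nuclear subunit of complex IV, was at 719.8, 592, 500.2, 869 and 961 CPM against 100.1, 301, 211, 192 and 172 CPM, 3.72-fold lower (-1.90 ± 0.27, Padj = 0.00257). Cox6a1, Cox7a2 and Ndufb3 were lower by 1.40, 1.89 and 1.96 on the log2 scale, with Padj of 0.00753, 0.0111 and 0.0271. Of the 50-base stretches of mt-Co1 transcripts 51.1% also occur in transcripts of other annotated genes, and 99.5% of those of mt-Atp6 do, so their levels are uncertain. Of the nuclear genes 5, 6 and 8 were lower without C07, C09 or C02 of the 2 day set, and 6 without the 4 libraries, while the mitochondrial calls numbered 6 without C02 and 8 without the 4 libraries.

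Cytosolic ribosomal protein genes resembled the nuclear respiratory genes. Of 41 tested, 7 were lower and none higher, 39 had log2 fold changes below 0, and the median was -0.95. Rplp1, a protein of the ribosomal stalk, was at 290.1, 191, 236, 391 and 392 CPM against 92.2, 62.0, 56.1, 52.2 and 50.9 CPM (-2.27 ± 0.29, Padj = 0.000941). Rpl8 and Rps15 were lower by 1.66 and 1.51 on the log2 scale (Padj = 0.00337 and 0.00840). Of the 41 genes 3 were lower without the 4 libraries. Ribosomal protein genes have many processed copies in the genome, and 60.0% of the 50-base stretches of Rplp1 and 30.3% of those of Rps15 recur in other annotated transcripts. The 2 day libraries C07 and C09 stood above the rest in the summed ribosomal level, at 10368 and 10493 CPM against 5064 to 6380 CPM in C02, C04 and C05, and the 4 week libraries lay at 3708 to 4818 CPM.

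Exon length and base composition moved with the difference between the sets. Among the 10% of genes with the shortest summed exons (231 to 1987 bases) 13 were higher and 124 lower at 4 weeks, with a median log2 fold change of -0.70. In the longest 10% (10691 bases and more) 113 were higher and 5 lower, with a median of 0.44. Across 11244 genes the Spearman correlation of the log2 fold change with exon length was 0.33, and with exonic GC content it was -0.27 (11239 genes). Genes are not independent replicates, and all points share the same 10 libraries. In the 10% with the lowest GC content 91 genes were higher and 5 lower, and in the 10% with the highest 3 were higher and 62 lower. Genes higher at 4 weeks had a median exon length of 8639 bases and lower genes 2132 bases, against 4891 bases over all genes tested.

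**Figure D4:**
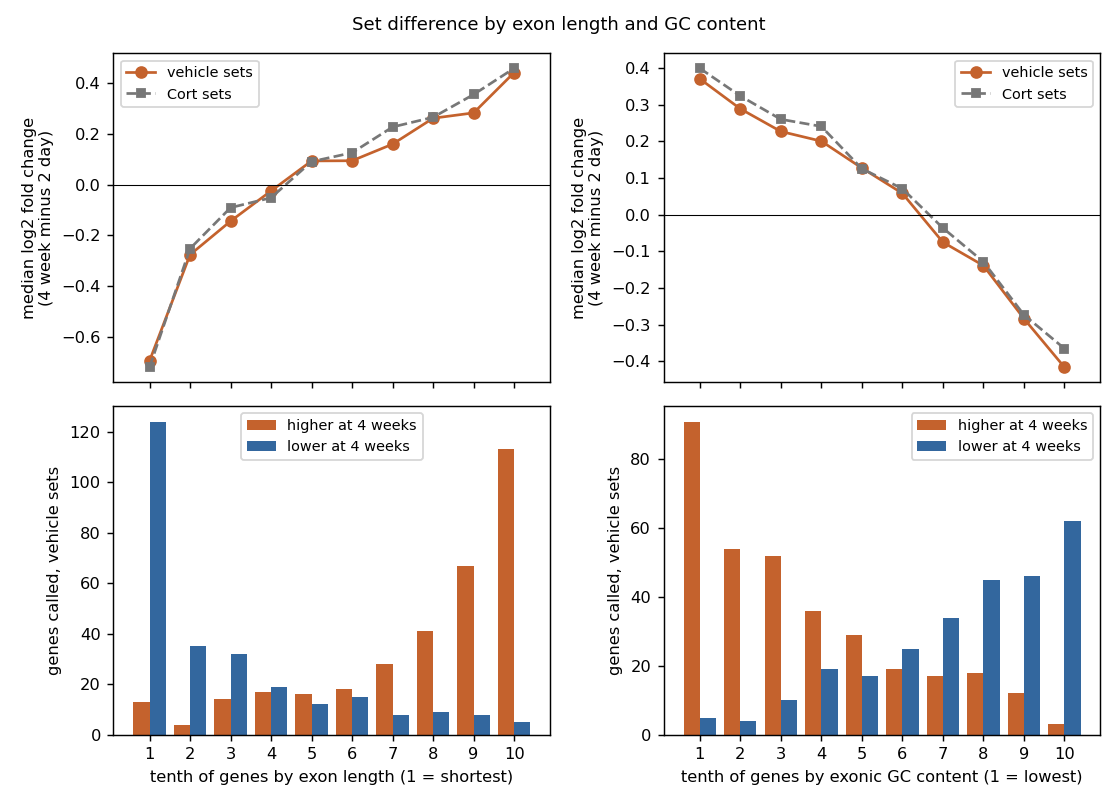
Genes tested were divided into 10 equal groups by summed exon length (left) and exonic GC content (right). The upper panels give the median log2 fold change of each group in the vehicle sets and the Cort sets, and the lower panels the number of genes called between the vehicle sets. Medians run from -0.70 to 0.44 with length and from 0.37 to -0.42 with GC content.

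The groups above were therefore also measured after a smooth trend on length and GC content had been taken out of each library. This left 157 genes higher (1.40%) and 52 lower (0.463%) of 11239. Of the nuclear respiratory genes 1 was then higher and none lower (median -0.34), and none of the 41 listed ribosomal protein genes was called (median -0.20). Rps14 and Rplp2, ribosomal protein genes outside that list, stayed lower (-1.46 and -1.30, limma Padj = 0.0480 and 0.0773). Cox6a1 and Rps15 changed sign, to 0.38 and 0.40. The mitochondrially encoded genes, which are short but low in GC content, kept their direction with 10 higher and a median of 1.78. Tanycyte genes kept 4 calls (median 1.24), and Npy2r kept its call (1.96, Padj = 0.0280). Cartpt fell by 0.71 without a call (Padj = 0.157) and Tac2 was not called (-1.17, Padj = 0.316). Sst, a short transcript, then differed by 2.08 (Padj = 1.16e-05), more than before. Of 16 neuronal genes 1 remained lower, Map2 (-0.93, Padj = 0.0164), and of the astrocyte genes 2 did, Slc1a2 (-1.26, Padj = 0.0203) and Slc1a3 (-0.85, Padj = 0.0461). Adcyap1 stayed lower (Padj = 0.0158), as did Oxt (Padj = 0.0627), and Avp was not called (Padj = 0.119).

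Among single genes outside the lists whose sets did not overlap and whose higher set averaged at least 50 CPM, the largest rises at 4 weeks were those of Rnpc3, Zfp950 and Ccdc108. Rnpc3, a protein of the minor spliceosome, was at 8.34, 7.01, 3.51, 7.05 and 2.99 CPM against 225, 35.5, 60.4, 86.3 and 53.6 CPM (3.98 ± 0.60, Padj = 0.00277). Leng8 was at 37.2, 34.6, 37.7, 15.2 and 14.4 CPM against 378, 273, 129, 349 and 166 CPM (3.21 ± 0.40, Padj = 0.000694). The sets of neither gene overlapped. Zfp950 (a zinc finger gene), Ccdc108, Fam76b and Iqub were higher by 3.94, 3.45, 3.25 and 3.21 on the log2 scale, and Gdpd2, Pdzrn3, Donson, Adal, Zcchc7, Wsb1, Cd44, Pkd1 and Spaca6 by 2.48 to 3.02. Ccdc108, Gdpd2, Donson, Adal, Zcchc7, Cd44 and Pkd1 were not called without the 4 libraries, with Padj of 0.108 to 0.420. Cd44, a receptor for hyaluronan in the matrix, was at 13.2 ± 6.64 CPM against 78.4 ± 27.0 CPM (SD, n = 5 each). Snhg11, the one long non-coding RNA of its list in the tables, was at 166, 77.1, 122, 191 and 297 CPM against 2979, 1159, 1772, 1739 and 1109 CPM, 10.2-fold higher (3.36 ± 0.35, Padj = 0.000141). It lies on chromosome 2 at 158375638 to 158386145, and it was called in each of the 20 other analyses.

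By the same rule the largest falls were those of Kcnab2, a potassium channel subunit, and Mif, a cytokine. Kcnab2 was at 63.2, 45.8, 45.7, 36.2 and 67.4 CPM against 0, 1.43, 1.71, 14.9 and 0.446 CPM (-3.76 ± 0.88, Padj = 0.0319). Most of its 4 week level came from C04, and without the 4 libraries its Padj was 0.122. Mif was at 57.7 ± 7.78 against 9.71 ± 5.16 CPM (SD, n = 5 each; Padj = 0.0234), and 50.9% of its 50-base stretches occur in other transcripts. Pip4k2b (a lipid kinase), Hdac5 (a histone deacetylase) and Ubb (ubiquitin) were lower by 2.37, 2.34 and 2.21 on the log2 scale. With them came the short transcripts Rps14, Rplp2, Uqcr10, Ndufa11, Nop10, Krtcap2, Znhit1 and Rnf208 and the proline transporter gene Slc6a7, which fell by 2.18 to 2.52. Of these Znhit1 and Slc6a7 were not called without the 4 libraries (Padj = 0.265 and 0.125). After the length and GC trend was removed, Kcnab2 (-3.99, Padj = 0.0199), Pip4k2b (-2.23, Padj = 0.0378) and Fabp7 (-1.80, Padj = 0.0390) stayed lower by limma. So did Hdac5 (-1.74, Padj = 0.0773), Ubb (-1.51, Padj = 0.0627), Rps14 (-1.46, Padj = 0.0480) and Rplp2 (-1.30, Padj = 0.0773). Mif (Padj = 0.477), Uqcr10, Ndufa11, Nop10, Krtcap2, Znhit1, Rnf208 and Slc6a7 did not pass, the lowest Padj being 0.165 for Nop10.

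Other lists held few calls. Of 18 circadian clock genes none was called by edgeR (median 0.35), and of 4 immediate early genes tested none was. Among 13 glucocorticoid-induced genes 2 were lower, the actin-binding gene Fam107a (-1.26 ± 0.25, Padj = 0.0135) and the metallothionein Mt1 (-1.82 ± 0.41, Padj = 0.0275). The list had a median of -0.43, and its summed level did not overlap, at 1815 to 3009 CPM (2 day) and 1048 to 1741 CPM (4 week). Without the 4 libraries neither gene was called (Padj = 0.119 and 0.216), and with the length and GC trend removed Fam107a was (Padj = 0.0871) and Mt1 was not (Padj = 0.357). Fkbp5, a common marker of receptor activity, gave 1.24 ± 0.83 (Padj = 0.460). The glucocorticoid receptor gene Nr3c1 was higher, at 162 ± 28.4 against 299.9 ± 107 CPM (SD, n = 5 each; 0.88 ± 0.26, Padj = 0.0828, named after its value was seen). In lipid synthesis the desaturase gene Scd2 was lower (-0.90 ± 0.23, Padj = 0.0493), and in autophagy Lamp2 was higher (0.79, Padj = 0.0823) and Map1lc3b lower (-1.17, Padj = 0.0580), neither called without the 4 libraries (Padj = 0.141 and 0.186). Of 19 glycolysis genes 1 was lower and 17 had log2 fold changes below 0 (median -0.55), with summed levels of 4003 to 4473 CPM (2 day) and 2195 to 3447 CPM (4 week), and with the length and GC trend removed the median was 0.04. No gene of the microglia (14 tested), endothelial (10), pericyte (6) or meningeal (6) lists was called by edgeR. The endothelial median was -1.02, with 8 of 10 genes below 0. The summed levels of these lists overlapped between sets, for example 406 to 763 CPM (2 day) and 234 to 663 CPM (4 week) for microglia. The Y-linked genes Kdm5d and Eif2s3y had counts in every library, and both were higher at 4 weeks (2.49 ± 0.50, Padj = 0.0142 and 1.97 ± 0.56, Padj = 0.0716), though not without the 4 libraries (Padj = 0.156 and 0.232).

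The Cort libraries offer a second set contrast in other mice with no library in common. Length of Cort exposure, 2 days against 4 weeks, is part of it, so it is not the same contrast as between the vehicle sets. There 576 of 11443 genes were called (5.03%), 357 higher and 219 lower at 4 weeks. Of the 598 genes called between the vehicle sets 588 were tested in the Cort sets, and 557 of them had the same sign (94.7%), compared with 67.1% of all 10952 genes tested in both. In the same direction, 182 were called again, which is 31.0% of the 588 and 31.6% of the genes called between the Cort sets. Across all these genes the Pearson correlation of the log2 fold changes was 0.42, given as a description. Snhg11 (2.82, Padj = 4.62e-07), mt-Co1 (1.27, Padj = 3.06e-06), Gpr50 (1.95, Padj = 0.0163), Scn7a (1.89, Padj = 0.0174), Uchl1 (-1.53, Padj = 0.00160), Rplp1 (-2.60, Padj = 0.000192) and Avp (Padj = 0.0472) were called there too. Cartpt (-0.87, Padj = 0.105), Adcyap1 (-1.10, Padj = 0.732), Vcan (0.75, Padj = 0.457), Npy2r (0.56, Padj = 0.536), Tac2 (-0.49, Padj = 0.582) and Rnpc3 (1.51, Padj = 0.149) were not. Ina had the opposite sign there, without a call (0.51, Padj = 0.292). Of 16 neuronal genes 3 were lower (median -0.14), and none of 14 astrocyte genes was called (median -0.24). Of 11 tanycyte genes 3 were higher (median 1.08), and of 11 mitochondrially encoded genes 9 were (median 1.41). Of 41 ribosomal protein genes 11 were lower (median -0.92). Exon length showed nearly the same pattern as between the vehicle sets, with medians of -0.72 in the shortest 10% and 0.46 in the longest 10%.

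Agrp and Npy were lower in the 4 week Cort set than in the 2 day Cort set (-1.79, Padj = 0.00697 and -2.11, Padj = 0.0118), as was Pomc (-1.12, Padj = 0.0128). Whether a set difference differed between vehicle and Cort mice was tested in one fit over the 20 libraries. No gene of 12512 was called by edgeR's quasi-likelihood test, where 779 had an unadjusted p below 0.05 (6.23%). The smallest Padj was 0.267, for Ina. DESeq2 called 27. For Agrp, Npy and Pomc the edgeR Padj of this test were 0.886, 0.719 and 0.995. A set difference that itself differed between vehicle and Cort mice was not detected for them. Npy had an unadjusted edgeR p of 0.00906. Vehicle against Cort within a set was not tested here.

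**Figure D5:**
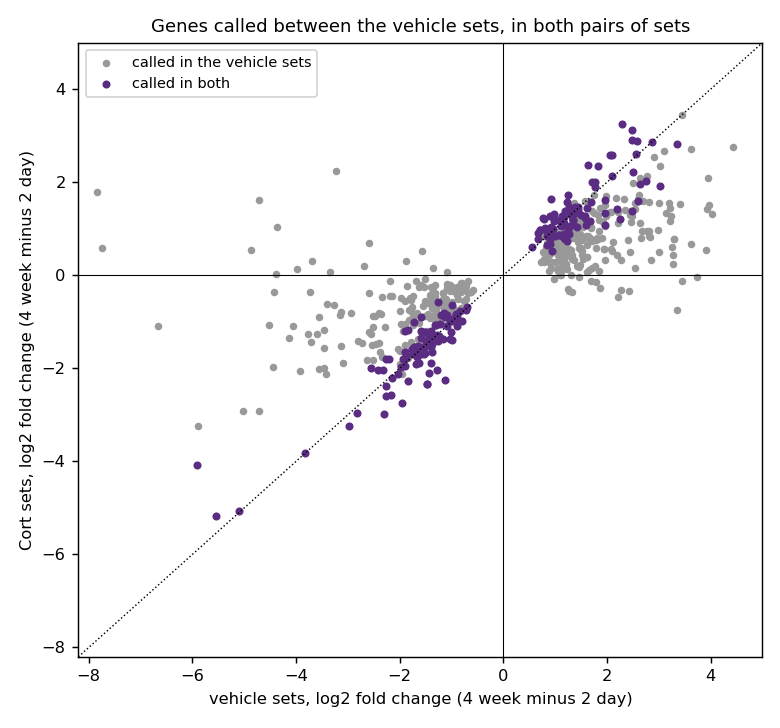
Log2 fold change (4 week minus 2 day) of the 588 genes called between the vehicle sets and tested in both, for vehicle libraries (x axis) and Cort libraries (y axis); the dotted line marks equal values. Points lie mainly in the lower left and upper right, 557 of 588, and the 182 genes called in both are dark.

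Libraries varied more within the 4 week set. The median SD of log2 CPM over the genes tested was 0.512 at 2 days and 1.12 at 4 weeks, and 88.9% of genes had the larger SD at 4 weeks. edgeR's common biological coefficient of variation was 0.445 for the 2 day and 0.885 for the 4 week vehicle set, and 0.328 and 0.714 in the 3 libraries of each set that the study kept. The 4 week libraries were also the shallower ones, and the part of depth in the spread was not tested. The genes with the largest spread within sets were often set by 1 library. Vps52, which tethers vesicles at the Golgi, was at 553 CPM in C02 of the 2 day set and at 16.3 to 30.5 CPM in the other 4. Cenpb, a centromere protein, was at 390.0 CPM in C05 of the 4 week set against 0.981 to 22.6 CPM in the rest, and Gpr176, Pde3a and Tmem230 also peaked in that library, at 284, 357 and 271 CPM.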

How the data were processed

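Gene counts were used as deposited. The authors extracted RNA (RIN above 6.5) from laser-captured arcuate nuclei, amplified 2 ng with the NuGEN Ovation RNA-seq System V2, which does not mark strand, sequenced single-end reads of 50 bases, aligned them to GRCm38 with Rsubread and counted reads per gene with featureCounts; the annotation release and the handling of multiply mapped reads are not given in the sources used here. Submitters' processing notes also name CASAVA 1.7 and DESeq2. The deposited tables further hold 14 columns of normalized values and the authors' own comparisons, which were not used.

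The 2 vehicle sets (5 libraries each) were compared with edgeR 4.0.16 in R 4.3.3 (TMM scaling, filterByExpr, quasi-likelihood test, Benjamini-Hochberg adjustment, called at Padj below 0.1). The Cort sets were fitted alone in the same way, and the difference between the set effects over all 20 libraries. Standard errors are of log2 fold changes. Sets are said not to overlap where every library of one lay outside the range of the other. Nothing ties separate libraries to separate mice beyond the labels, so p-values measure the spread between these libraries. For 5 against 5 the smallest two-sided exact permutation p is 0.00794, reached by 76 of 129 named genes. Levels are CPM, divided by summed exon length where genes are compared. Exon length and GC content were available for 99.1% of the 22048 genes in the tables. For the length and GC analysis a natural spline (5 degrees of freedom) on each was subtracted per library from log2 CPM (prior count 2), followed by limma 3.58.1 with trend. Scripts were tested on simulated data. Alternatives were DESeq2 1.42.0, other scalings and filters, thinning and leaving out libraries.

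Named genes were the study's marker panel, the arcuate neuron lists, up to 4 called non-overlapping genes of each other list, the 15 largest non-overlapping rises and falls outside the lists with at least 50 CPM, the 15 highest genes per kilobase and the 10 most variable. Aqp4, Col23a1, Ermn, Fkbp5, Ghr, Hdc, Lepr, Mlc1, Nr3c1, Rax, Slc1a2, Snap25 and Thy1 were picked with their values in view. The members and lists were chosen with earlier results of these data known. Library columns were tied to sets and treatments through the study's own sample table.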

Additional observations from a re-analysis of the deposited data

Results flagged for a closer look

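In 29 of 270 groups of 5 libraries (10.7%) 1 library stood apart from the other 4 in CPM. The rule flags about 1 in 20 groups of independent, normally distributed values. These groups share the same 10 libraries and include genes picked by their values, so the share does not measure an excess over chance. Library C01 of the 4 week set held 8 of these and C05 of that set 6. C01 was lowest for Cpe (527, next 931) and for the summed Pomc neuron (1135) and ependymal (53.0) lists, and highest for Stat3 (341), Rplp1 (92.2), Pkd1 (407), Zcchc7 (542) and Rnpc3 (225). C05 was highest for Tac1 (68.7), Esr1 (189), Slc6a3 (92.4), Donson (179, next 29.4), Zfp950 (357, next 74.3) and the summed circadian clock list (3073.5). The 4 week library C02 was highest for Nhlh2 (36.6), Prlr (433) and Fam107a (386), C03 for Oxt (1.71), Avp (2.57) and Spaca6 (142), and C04 for Kcnab2 (14.9) and Rps14 (241). In the 2 day set C09 was highest for Corin (34.5), Rbfox3 (138), Znhit1 (148) and Krtcap2 (82.9) and lowest for Pgr (58.7), and C07 was highest for Scd2 (2747) and the summed cholesterol and fatty acid synthesis list (4962).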

How the results depend on the processing

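The number of genes differing between the vehicle sets was 598. It was 1330 with DESeq2 (835 higher, 495 lower), 281 without the 4 libraries the study left out, 209 with the length and GC trend removed and 255 at an adjusted p below 0.05. Leaving out 1 library gave 216 to 846, with 216, 264, 285, 230 and 241 without C02, C04, C05, C07 and C09 of the 2 day set, and 604 to 846 without a 4 week library. Other scalings, filters, weights and thinning gave 493 to 754, but upper quartile scaling turned the split to 203 higher and 349 lower (36.8% higher against 55.4%) and sample quality weights moved the median of all genes to -0.19. The number of genes differing between the Cort sets, 576, became 1363 with DESeq2, 374 without the 2 libraries left out, and 166 to 904 when 1 library was left out. The interaction of set and treatment, with 0 calls by edgeR, had 27 with DESeq2 and 2 without the 6 libraries. The per gene separation of the vehicle sets, 830 genes without overlap, became 898 with upper quartile scaling and 873 with unscaled CPM, an alternative chosen after seeing the data. Of 78 named genes called, 46 kept the call without the 4 libraries, and 39 with the length and GC trend removed, where 4 changed sign, Cox6a1 to 0.38, Rps15 to 0.40, Cst3 to 0.074 and Nnat to 0.43. The cause was not tested. Depth limits what can be said of genes below 3 counts per library, which stand for a higher CPM at 4 weeks. No paired analysis was possible because the replicate numbers of the labels could not be tied to the library columns of the tables.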

Other observations

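Other arcuate genes gave no call by edgeR with all 10 libraries and are given as values. The carboxypeptidase gene Cpe had a log2 fold change of -0.60 (Padj = 0.110) with sets that did not overlap, Pdyn (prodynorphin) -0.98 (Padj = 0.232), and the transcription factor genes Otp -0.28, Tbx3 -0.75 and Cited1 -0.48. Ghsr, the ghrelin receptor, gave 1.31 and Acvr1c, an activin receptor, 0.97. Acvr1c and Cpe were called with DESeq2 (Padj = 0.0850 and 0.0846). By edgeR, Acvr1c, Cpe and Pdyn were called without C05 of the 4 week set. Pdyn and Tbx3 were called by edgeR without the 4 libraries the study left out (Padj = 0.0867 and 0.0921).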
